A study of Arabidopsis thaliana with 6 samples.

Results

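The plastid-encoded genes are those carried by the chloroplast's own circular genome, and here they are the ATCG loci selected on their deposited counts, with at least 10 in 3 or more of the 6 libraries. By this rule 62 of the 108 ATCG loci in the count table were members, out of 30865 genes in that table. RNA of *Arabidopsis thaliana* (thale cress) was sequenced from untreated seedlings, taken whole at 9 days on medium with 1% sucrose. The 3 nup50c libraries came from a mutant in the gene for a NUP50 protein of the nuclear pore, through which proteins and RNA pass, and the 3 wild-type libraries came from the accession Col-0. The labels name no allele, and the numbers of the mutant samples were read as replicates although they could also name alleles. No label states that the samples were grown separately. The p-values therefore reflect sample-to-sample spread that could be technical only.

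The chloroplast genome encodes core subunits of both photosystems, the cytochrome b6f complex, the ATP synthase and the NADH dehydrogenase-like (NDH) complex, the large subunit of Rubisco, part of the plastid ribosome with its rRNAs and tRNAs, and the core of a bacterial-type RNA polymerase. That polymerase takes its promoter specificity from nuclear-encoded sigma factors and transcribes most photosynthesis genes. A phage-type polymerase encoded in the nucleus transcribes the genes of the bacterial-type polymerase, among others. Many plastid genes lie in shared transcription units, and their transcripts are cut, spliced, edited and protected by nuclear-encoded proteins. Plastid mRNAs lack the stable poly(A) tails of nuclear mRNAs.

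Several sequences help to read the values, and all are from the plastid genome of RefSeq's TAIR10.1, a molecule of 154478 bases, written Pltd. The first is the last 30 bases of the 16S rRNA gene, shown because the same letters stand in both copies of the inverted repeat, at Pltd:102473-102502 on the plus strand and at Pltd:136147-136176 on the minus strand. Its capitals mark CCTCCT, the stretch with which a bacterial-type ribosome pairs ahead of a start codon. The next 3 are places where neighbouring genes of 1 transcription unit overlap, so that a read from there belongs to both genes. In *psbD*/*psbC* (Pltd:33720-33772, plus strand) the capitals mark the start codon of *psbC* and the stop codon of *psbD*. In *atpB*/*atpE* (Pltd:52648-52675, minus strand) and *rpl22*/*rps3* (Pltd:83455-83494, minus strand) the capitals mark the shared bases.
rrn16, both copies: actggaaggtgcggctggatcaCCTCCTtt
psbD/psbC: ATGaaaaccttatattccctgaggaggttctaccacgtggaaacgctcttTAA
atpB/atpE: taaattgaagaaATGAccttaaatcttt
rpl22/rps3: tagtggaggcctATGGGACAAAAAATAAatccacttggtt

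The bacterial-type polymerase is known to read promoters with the elements TTGACA and TATANT. Windows from 250 bases before to 50 bases after each annotated plastid gene start were searched on both strands for TTGACA followed by TATANT after 15 to 21 bases. The pair stood in 2 of 129 windows, or 1.55%, those of *psbA* (Pltd:1530-1559, minus strand) and of *trnK* (Pltd:4458-4486, minus strand), the tRNA gene whose intron holds *matK*. On either strand, TTGACA was present in 20.2% of the windows and TATANT in 79.1%, with or without the other element. The letters are a description of these windows and not evidence of a promoter. In the lines that follow, capitals mark the 2 elements.
psbA: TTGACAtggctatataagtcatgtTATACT
trnK: TTGACAacagtgtatggaccaaaTATAAT

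The libraries summed to 33273007 to 36984121 counts in nup50c and 35116694 to 39574236 in wild type. *NUP50C* (AT4G11790) had a level of 11.3 ± 2.0 CPM (counts scaled to library size with TMM factors) in nup50c and 31.7 ± 3.53 CPM in wild type (SD, n = 3 each), and fell by 1.49 on the log2 scale (SE 0.15, edgeR adjusted p = 0.00293). Along the second principal component of all genes, nup50c replicate 3 stood apart from the other libraries. Root markers, as a check of the whole-seedling label, were all measured, with 0 of 12 past the test, a median log2 fold change of 0.01 and summed levels of 2680 to 3272 CPM in nup50c, against 2347 to 2606 CPM in wild type. None of 5 guard cell markers passed either, at summed levels of 46.6 to 47.0 CPM in nup50c, against 49 to 53.8 CPM in wild type. Neither summed level overlapped between groups, with the root sum higher and the guard cell sum lower in nup50c. The single markers were split, with 6 root markers fitted above 0 and 6 below. Of the guard cell markers 2 were fitted above 0 and 3 below. The difference in these sums was not tested. Leaf mesophyll markers were also chosen, and among them *RBCS2B* was called higher and *PSAD2* lower, with values given below.

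These were mRNA libraries, and plastid mRNAs lack stable poly(A) tails. Shares and levels here thus describe what these libraries held and not how much plastid RNA the seedlings had. The members took a very small part of each library. They made up 0.0954%, 0.0929% and 0.0786% of the counts in nup50c, against 0.0924%, 0.0733% and 0.104% in wild type. The means were 0.0890% ± 0.00908 in nup50c and 0.0900% ± 0.0157 in wild type (SD, n = 3 each), closer together than the libraries of either group. In whole seedlings the share of green cells and the plastid RNA per cell cannot be told apart. Ribosomal RNA supplied 83.0%, 82.6% and 84.1% of the member counts in nup50c, against 87.4%, 83.7% and 85.3% in wild type. The groups overlapped, since the lowest wild-type share lay under the highest nup50c share. Without rRNA the members held 0.0162%, 0.0161% and 0.0125% of the counts in nup50c, against 0.0116%, 0.0119% and 0.0154% in wild type, overlapping again.

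**Figure D1:**
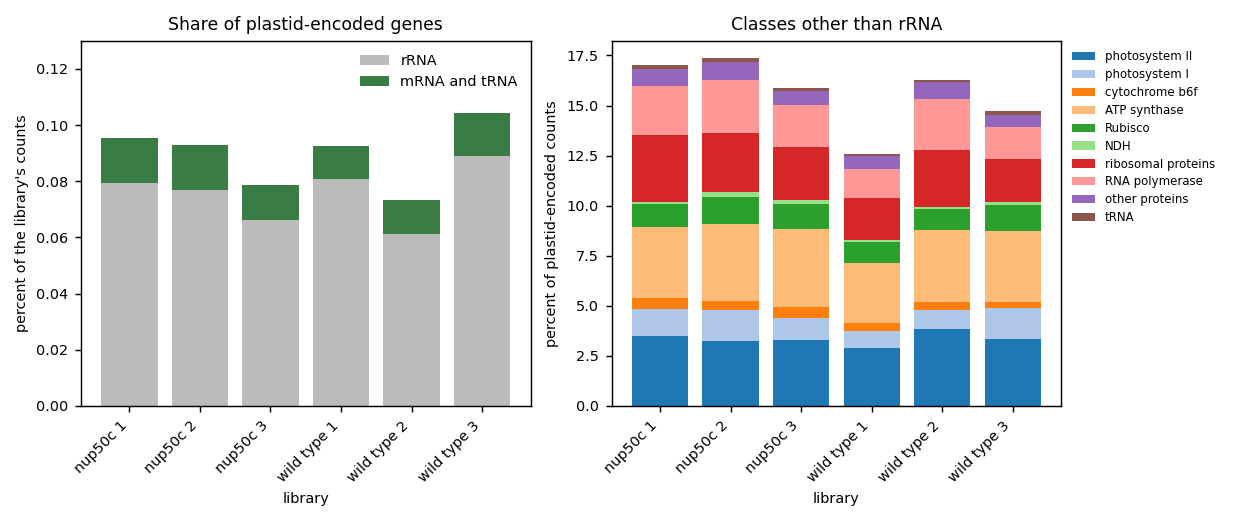
Left, percent of each library's counts that fell on the plastid-encoded genes, split into rRNA and the rest, and right, the percent of plastid-encoded counts in each class other than rRNA, by library. The shares run from 0.0786% to 0.0954% in nup50c and from 0.0733% to 0.104% in wild type, and rRNA makes up over 80% of them in all 6 libraries.

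Of the members, 61 could be tested among 21158 genes, and the second copy of *trnI-GAU* was too low for the filter. With the quasi-likelihood test of edgeR and adjustment after Benjamini and Hochberg, 0 of the 61 were higher and 0 lower in nup50c. Over all genes tested 1.12% were called higher and 1.17% lower, together 2.28%. DESeq2 and limma also called 0. At an unadjusted p under 0.05 there was 1 member, *rpoC1*, where 16.6% of all genes passed. The smallest adjusted p of any member was 0.29.

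The fitted changes of the members were above 0 for 45 of 61 genes, against 49.5% of all genes, with a median log2 fold change of 0.29, against -0.0028 over all genes. Without nup50c replicate 3, which stood apart, 53 of 62 were above 0, with a median of 0.42, and leaving out each library in turn gave 42 to 53. The members were not independent, since many share a transcript or a repeat copy, and the single libraries did not separate by group. The median deviation of the members from their mean over all libraries, on the log2 scale, was 0.38, 0.23 and -0.12 in nup50c, against -0.15, -0.23 and 0.16 in wild type. The third nup50c library thus lay with the lower wild-type libraries, and the third wild-type library lay above it. The CPM of the groups did not overlap for 6 of 61 members, or 9.84%, all higher in nup50c, where 11.7% of all genes did so in that direction. None was lower without overlap, where 11.6% of all genes were.

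Low counts set the precision. The mean level was below 1 CPM for 28 of the 62 members, the median over members was 1.2 CPM, and the median SE of the log2 fold change was 0.57. The 95% interval of the log2 fold change included 0 for 60 of 61 genes. A count of at least 10 was reached in all 6 libraries by 44 members and in exactly 3 by 5 members, and no member reached it in libraries of 1 group only.

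**Figure D2:**
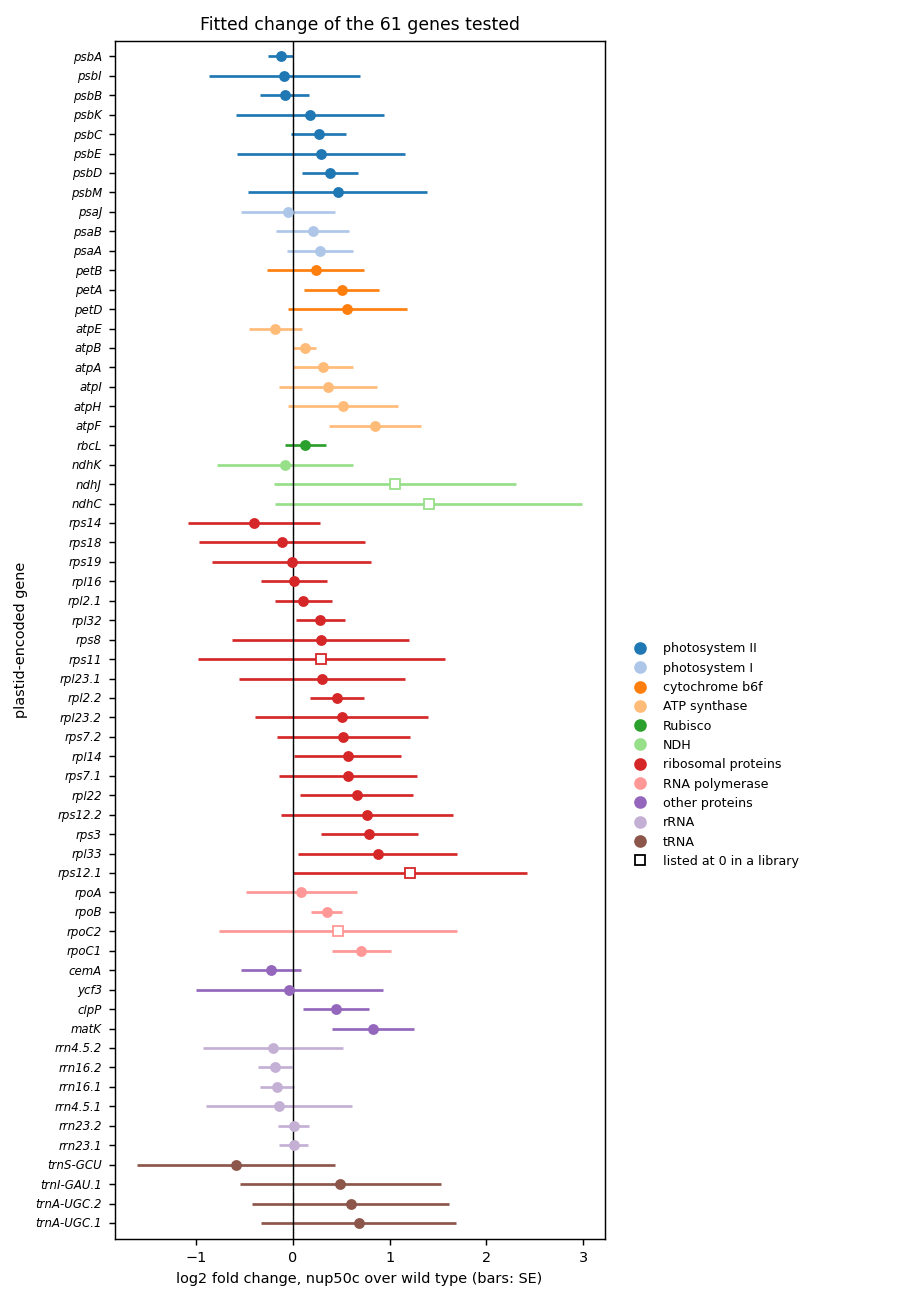
Fitted log2 fold change of nup50c over wild type for the 61 plastid-encoded genes tested, with bars of 1 SE, ordered by class, and open squares for genes listed at 0 in a library. The values centre on 0.29, and none passed the adjusted test.

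Photosystem II splits water, and 8 of its 13 plastid genes in the count table were members. Their summed level was 29.8 ± 3.40 CPM in nup50c and 29.8 ± 4.46 CPM in wild type (SD, n = 3 each). *psbA* (ATCG00020, Pltd:383-1444, minus strand), which encodes the reaction centre protein D1, had 15.9, 14.6 and 14.2 CPM in nup50c, against 15.4, 14.8 and 18.6 CPM in wild type. Its groups overlapped, with a fitted log2 value of -0.13 (SE 0.13, edgeR adjusted p = 0.70) with a 95% interval from -0.42 to 0.16. *psbB*, for the inner antenna protein CP47, had 186, 225 and 133 counts in nup50c, against 139, 204 and 269 in wild type. *psbC*, for the inner antenna protein CP43, had 217, 153 and 129 counts in nup50c, against 102, 143 and 199 in wild type. Both genes overlapped widely between groups. *psbD*, for the reaction centre protein D2, whose end is shared with the start of *psbC*, had 128, 115 and 73 counts in nup50c, against 89, 80 and 86 in wild type, and its log2 fold change of 0.38 stood beside 0.27 for *psbC*.

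Photosystem I, which passes electrons to ferredoxin, had 3 members among 5 genes in the count table. The reaction centre gene *psaA* had 169, 217 and 113 counts in nup50c, against 101, 102 and 235 in wild type. Its partner *psaB* had 228, 245 and 148 counts in nup50c, against 135, 111 and 331 in wild type. For both, wild-type replicate 3 was high and the other 2 wild-type libraries were the lowest of all 6. The log2 fold changes were 0.28 and 0.21, and that of *psaJ*, a small subunit, was -0.05.

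The cytochrome b6f complex links the photosystems and had 3 members among 6 genes in the count table, all fitted above 0. *petA*, for cytochrome f, had 81, 69 and 58 counts in nup50c, against 39, 56 and 61 in wild type. On the scaled level it was 1.99 ± 0.315 CPM in nup50c and 1.40 ± 0.253 CPM in wild type (SD, n = 3 each). The scaled levels did not overlap between groups, with a log2 fold change of 0.50 (SE 0.39, edgeR adjusted p = 0.59). *petB*, for cytochrome b6, had 60, 62 and 39 counts in nup50c, against 59, 25 and 60 in wild type. *petD*, for subunit IV, had 43, 27 and 44 counts in nup50c, against 28, 33 and 21 in wild type.

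All 6 genes of the ATP synthase in the count table were members, at a summed level of 33.3 ± 2.06 CPM in nup50c and 30.2 ± 5.84 CPM in wild type (SD, n = 3 each). *atpB*, for the catalytic beta subunit, had 649, 717 and 625 counts in nup50c, against 613, 562 and 771 in wild type. It was among the best measured mRNAs, with a log2 fold change of 0.12 and a 95% interval from -0.14 to 0.38. *atpE*, for the epsilon subunit, overlaps the end of *atpB* by the 4 capital letters shown above and had 218, 214 and 153 counts in nup50c, against 171, 180 and 359 in wild type, with a log2 fold change of -0.18. The 2 genes thus had fitted values of opposite sign although they lie next to each other. *atpF*, for a subunit of the peripheral stalk, had 1.63, 1.57 and 1.81 CPM in nup50c, against 0.654, 1.1 and 1.02 CPM in wild type. Its groups did not overlap, and the fitted log2 value was 0.85 (SE 0.48, edgeR adjusted p = 0.43). Its neighbours in the same cluster, *atpI*, *atpH* and *atpA*, had log2 fold changes of 0.36, 0.52 and 0.31.

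*rbcL* (ATCG00490, Pltd:54958-56397, plus strand), the large subunit of the carbon-fixing enzyme Rubisco, had 383, 460 and 333 counts in nup50c, against 337, 272 and 535 in wild type. On the scaled level the nup50c libraries lay inside the wild-type range, and the log2 fold change was 0.13 (95% interval from -0.35 to 0.61).

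The NDH complex carries electrons around photosystem I. Of its 12 plastid loci, 4 were in the count table used here and 3 were members, all from 1 transcription unit and all low. *ndhK* had 17, 52 and 20 counts in nup50c, against 26, 21 and 52 in wild type, and was the only one above 0 in every library. *ndhJ* had 13, 21 and 15 counts in nup50c, against 11, 13 and 0 in wild type. *ndhC* had 7, 13 and 16 counts in nup50c, against 0, 0 and 15 in wild type. The scaled levels of *ndhJ* did not overlap between groups. *ndhJ* and *ndhC* had the large fitted values of 1.05 and 1.40, which rest on libraries listed at 0, where a 0 can be a failed estimate.

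The levels of the photosynthesis genes and of the genes described next overlapped for most members.

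**Figure D3:**
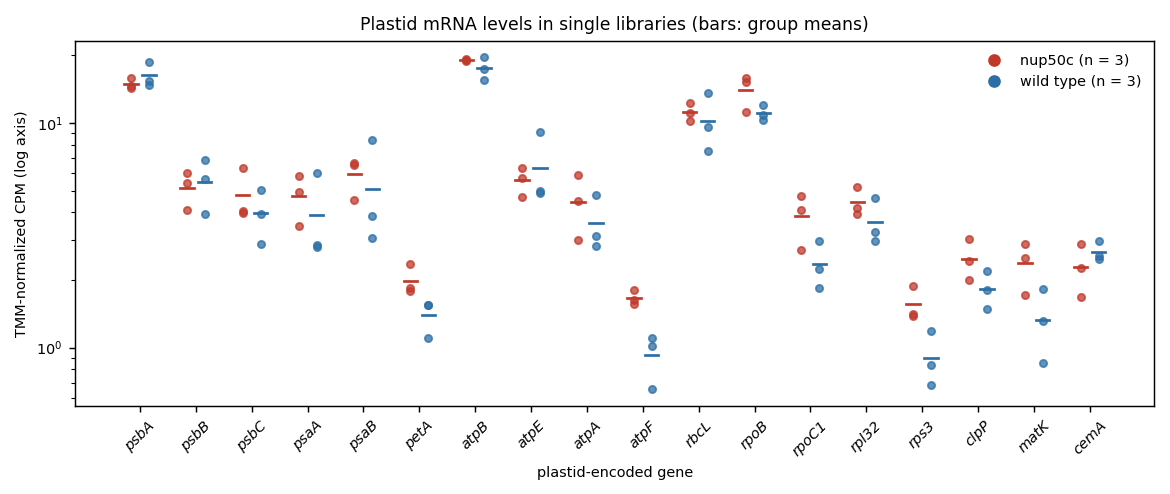
TMM-normalized CPM, on a log axis, of 18 plastid-encoded protein-coding genes in each of the 3 nup50c and 3 wild-type libraries, with bars at the group means. The points of *petA*, *atpF* and *rps3* do not overlap between groups, while *psbA*, *atpB* and *rbcL*, among the highest shown, do.

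The plastid RNA polymerase genes were all members, 4 of 4, and all 4 were fitted above 0. Their summed level was 21.4 ± 4.0 CPM in nup50c and 16.21 ± 2.62 CPM in wild type (SD, n = 3 each). *rpoB* (ATCG00190, Pltd:23111-26329, minus strand), for the beta subunit, had 546, 571 and 364 counts in nup50c, against 382, 435 and 404 in wild type. After scaling, nup50c replicates 1 and 2 stood above the other libraries and replicate 3 lay within the wild-type range, with a log2 fold change of 0.35 (SE 0.16, edgeR adjusted p = 0.32). *rpoC1* (ATCG00180, Pltd:20251-23084, minus strand), for the beta' subunit, had 141, 178 and 89 counts in nup50c, against 65, 81 and 118 in wild type. Here too nup50c replicate 3 lay within the wild-type range, with a log2 fold change of 0.71 (SE 0.31, edgeR adjusted p = 0.29). *rpoC2*, for the beta'' subunit, had 85, 93 and 57 counts in nup50c, against 0, 93 and 89 in wild type. The library listed at 0 sets its fitted value of 0.47, since without wild-type replicate 1 it was -0.11. *rpoA*, for the alpha subunit, lies in a ribosomal protein cluster elsewhere and had 28, 68 and 39 counts in nup50c, against 25, 65 and 43 in wild type (log2 fold change 0.09).

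*accD*, another gene known to be read by the phage-type polymerase, was listed at 0 counts in all 6 libraries. Both copies of *ycf2*, of the same kind, are not in the count table used here and are at 0 FPKM, the deposited level per transcript length and library size, in all 6 libraries. Of the genes listed here as read by the phage-type polymerase, which need not be all of them, only *rpoB*, *rpoC1* and *rpoC2* gave values. These share 1 transcription unit.

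The ribosomal protein genes formed the largest class of members, 19 of 23 in the count table, with 16 fitted above 0 and a median log2 fold change of 0.46. These numbers count both inverted-repeat copies of *rpl2*, *rpl23*, *rps7* and *rps12*, all of them fitted above 0, so the entries are not all separate genes. The summed level of the class was 26.6 ± 5.30 CPM in nup50c and 20.8 ± 1.65 CPM in wild type (SD, n = 3 each). *rpl32*, for a protein of the large subunit, had 135, 157 and 169 counts in nup50c, against 105, 118 and 183 in wild type. *rps3*, for a protein of the small subunit, had 65, 52 and 46 counts in nup50c, against 24, 43 and 33 in wild type. Its levels did not overlap between groups, at 1.56 ± 0.283 CPM in nup50c and 0.902 ± 0.258 CPM in wild type (SD, n = 3 each), with a log2 fold change of 0.79 (edgeR adjusted p = 0.50). Also without overlap in this class were *rps7.2* and *rps12.1*. *rps7.2* had 31, 31 and 23 counts in nup50c, against 21, 24 and 17 in wild type. *rps12.1* had 20, 18 and 16 counts in nup50c, against 0, 12 and 13 in wild type. Their other repeat copies did overlap. The copy *rps7.1*, identical in sequence to *rps7.2*, had 33, 35 and 16 counts in nup50c, against 21, 19 and 19 in wild type. The copy *rps12.2* had 20, 14 and 17 counts in nup50c, against 6, 14 and 12 in wild type. *rps14*, for a small-subunit protein encoded behind *psaB*, had the lowest fitted value of the class, -0.40, with 23, 34 and 15 counts in nup50c, against 20, 40 and 40 in wild type.

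Among the other protein-coding members, *matK*, the intron maturase, had 86, 109 and 56 counts in nup50c, against 30, 66 and 52 in wild type. Its level was 2.37 ± 0.601 CPM in nup50c and 1.33 ± 0.485 CPM in wild type (SD, n = 3 each), with a log2 fold change of 0.83 (SE 0.42, edgeR adjusted p = 0.38). One nup50c library lay below the highest wild-type library. *clpP*, the proteolytic subunit of the Clp protease, had 105, 91 and 65 counts in nup50c, against 77, 54 and 71 in wild type (log2 fold change 0.45). *cemA*, an envelope membrane protein, had 78, 109 and 55 counts in nup50c, against 87, 93 and 117 in wild type (log2 fold change -0.22).

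The 16S and 23S rRNA genes, which build the plastid ribosome, gave the highest member counts, with fitted values between -0.19 and 0.01. The 2 copies of the 4.5S gene were low, at a mean of 0.645 and 0.690 CPM over all libraries. The first copy of the 23S gene (ATCG00950, Pltd:104691-107500, plus strand) had 9213, 9432 and 7344 counts in nup50c, against 8174, 7333 and 12025 in wild type. Its log2 fold change was 0.01 with a 95% interval from -0.36 to 0.38. The first copy of the 16S gene had 4467, 4861 and 3698 counts in nup50c, against 5966, 3795 and 5654 in wild type, with a log2 fold change of -0.17 (95% interval from -0.58 to 0.25). The class summed to 741 ± 59.5 CPM in nup50c and 770 ± 145 CPM in wild type (SD, n = 3 each), so the wild-type libraries spread more than the group means differed.

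Only 5 of the 33 tRNA loci in the count table were members, and 4 could be tested. *trnS-GCU* had 6, 6 and 12 counts in nup50c, against 17, 7 and 15 in wild type, with the lowest fitted value of any member, -0.59. The first copy of *trnA-UGC*, a gene with an intron in the rRNA operon, had 15, 14 and 10 counts in nup50c, against 7, 4 and 15 in wild type (log2 fold change 0.68). Apart from *trnS-GCU* the tRNA members were the copies of *trnA-UGC* and *trnI-GAU*, which both lie between the 16S and 23S genes.

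The inverted repeat places some members in the genome in pairs of identical sequence. Identity was 100% over 1491 bases of *rrn16*, 2810 of *rrn23*, 1507 of *rpl2* and 468 of *rps7*. No source used here says how reads with several matches were counted, so the values of the copies are uncertain and the rRNA sums may hold the same reads on both. The second copy held 0.983 to 1.01 times the counts of the first for *rrn16* and 0.975 to 0.997 times for *rrn23* over the 6 libraries. For *rpl2* the ratio was 1.53, 1.49 and 1.57 in nup50c, against 1.35, 0.964 and 1.28 in wild type. The second copy of this identical pair thus held more counts in 5 of 6 libraries, and the 2 *rpl2* copies had log2 fold changes of 0.11 and 0.46 for 1 sequence.

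**Figure D4:**
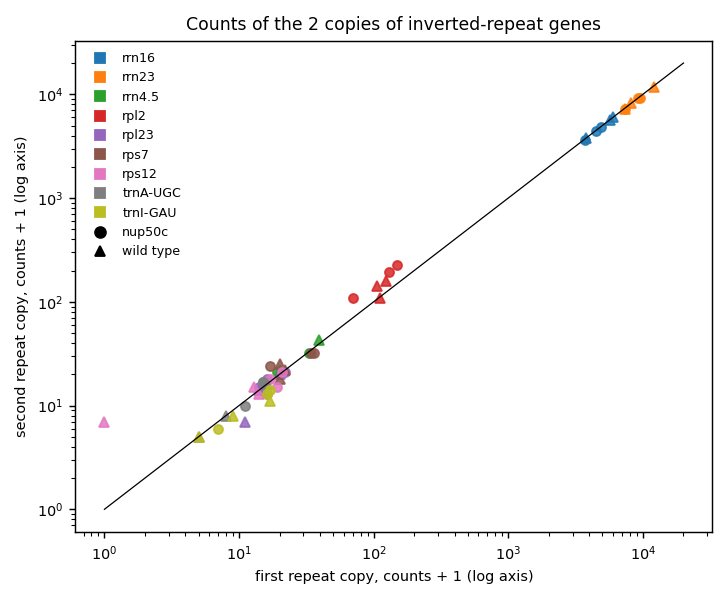
Counts + 1 of the second against the first inverted-repeat copy of each duplicated member, both on log axes, with circles for nup50c libraries, triangles for wild-type libraries and a line at equality. The rRNA copies lie on the line and *rpl2* lies above it in 5 of 6 libraries.

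Per length, from the mean of the deposited FPKM over all 6 libraries, rRNA led with 80.5 FPKM for the first 16S copy and 80.1 FPKM for the first 23S copy. Among mRNAs the level was 23.0 FPKM for *rpl32*, 13.5 for *atpE*, 13.3 for *psbA*, 11.1 for *atpB*, 9.07 for *psaJ* and 6.77 for *rbcL*. It was lowest for *rpoC2* at 0.422 FPKM. This order holds for these mRNA libraries and need not be that of the seedlings. *rpl32* (159 bases) and *psaJ* (135 bases) are also about as short as a read of 150 nt, which makes a level per length uncertain. Of the 62 members 60 were matched to a gene in RefSeq, and the trans-spliced *rps12* copies were not. The 49 matched protein-coding members ran from 105 bases for *psbM* to 4131 for *rpoC2*, with a GC content of 30.5% to 45.1%. Across these genes, which are not independent replicates, Spearman's rho with the log2 fold change was 0.02 for length, -0.07 for GC content and 0.03 for the longest run of A.

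The count limit set which loci are members. Just inside it, the second copy of *trnI-GAU* had 13, 12 and 5 counts in nup50c, against 4, 7 and 10 in wild type. Just outside it, *petN*, for a small cytochrome b6f subunit, had 13, 13 and 8 counts in nup50c, against 6, 3 and 8 in wild type. The photosystem II gene *psbL* had 18, 11 and 6 counts in nup50c, against 4, 8 and 8 in wild type. *psbF*, for a subunit of cytochrome b559, had 11, 12 and 5 counts in nup50c, against 2, 2 and 5 in wild type. The photosystem II gene *psbH* had 8, 9 and 8 counts in nup50c, against 14, 9 and 12 in wild type. Together with *petL* these are the 5 loci at 10 or more in 2 libraries, and 17 of the 46 other loci in the table were at 0 throughout. A further 25 known plastid loci are not in the count table used here, and the highest of them in the FPKM table was *psbJ* at 3.55 FPKM in wild-type replicate 2.

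The mitochondrial genome was treated by the same count rule, which 25 of 112 loci met. Their fitted values lay mostly on the other side, with 2 above and 23 below 0 and a median log2 fold change of -0.53, and 0 were called by edgeR, with 0 at an unadjusted p under 0.05. Summed over all 112 mitochondrial loci, the share of the library was 0.0143%, 0.0169% and 0.0144% in nup50c, against 0.0150%, 0.0145% and 0.0171% in wild type, so the summed counts overlapped, with a ratio of group means of 0.982. Among the 15 above 0 in every library, 14 were below 0 with a median of -0.40. The median deviation was 0.04, 0.04 and -0.82 in nup50c, against 0.25, 0.44 and 0.28 in wild type, so nup50c replicate 3 stood lowest on this measure, though not in its summed share. Without that library the median was -0.30. The difference between the organelles was not tested.

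The proteins that transcribe and process plastid RNA are encoded in the nucleus and were measured at far higher counts. Of 44 tested genes in these lists, 6 rose in nup50c and 0 fell, where 1.12% of all genes were called higher and 1.17% lower. These lists, and the lists of partner subunits below, were chosen with earlier results of these data known. Their counts beside those of all genes are therefore a description and not a test. *SIG2* (AT1G08540), a sigma factor that directs the bacterial-type polymerase to several tRNA genes, had 133.4, 123.8 and 123.2 CPM in nup50c, against 102.0, 99.3 and 105.2 CPM in wild type. Its log2 fold change was 0.31 (edgeR adjusted p = 0.0391), and it was the 1 of 6 sigma factors past the test, with 4 of the 6 fitted above 0. *SIG4* had 38.9, 38.1 and 43.7 CPM in nup50c, against 29.5, 31.8 and 29.7 CPM in wild type, without overlap and just short of the threshold (log2 fold change 0.41, edgeR adjusted p = 0.0510). *SIG5*, which acts at the light-responsive promoter of *psbD*, had 13.5, 19.0 and 17.7 CPM in nup50c, against 29.02, 21.8 and 26.7 CPM in wild type (log2 fold change -0.63, edgeR adjusted p = 0.0821). *PAP8*, a protein bound to that polymerase, rose to 109.8 ± 0.936 CPM in nup50c, against 85.9 ± 2.78 CPM in wild type (SD, n = 3 each; log2 fold change 0.35, edgeR adjusted p = 0.0197). It was the 1 called of 13 polymerase-associated genes, whose median was 0.19. Neither of the 2 phage-type polymerases passed, and the smaller adjusted p, 0.29, was that of *RPOTmp*, with a log2 fold change of -0.29.

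Among 23 genes of plastid RNA processing and stability, 4 rose, 0 fell and the median log2 fold change was 0.26. *RNJ*, the chloroplast ribonuclease J, had 130.7, 125.5 and 118.7 CPM in nup50c, against 62.7, 76.7 and 86.1 CPM in wild type (log2 fold change 0.73, edgeR adjusted p = 0.0142). *MRL1*, which stabilises the *rbcL* transcript, was at 170.2 ± 4.47 CPM in nup50c and 124.3 ± 8.0 CPM in wild type (SD, n = 3 each; log2 fold change 0.45, edgeR adjusted p = 0.0111). *CP29A*, an RNA-binding protein of the chloroplast, was at 1473 ± 33 CPM in nup50c and 1098 ± 111.8 CPM in wild type (SD, n = 3 each; log2 fold change 0.42, edgeR adjusted p = 0.0259). *PGR3*, which acts on *petL* transcripts, rose by 0.35 on the log2 scale (edgeR adjusted p = 0.0314). Of the targets named here, which need not be all of them, *rbcL* had the value of 0.13 given above. The other, *petL*, lay outside the count rule and had 17, 10 and 3 counts in nup50c, against 6, 2 and 0 in wild type.

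Nuclear genes for partner subunits of the same complexes did not move one way. Of 91 tested, 6 rose and 4 fell in nup50c, beside the same 1.12% and 1.17% of all genes. In photosystem I, 3 of 12 fell, with all 12 fitted below 0 and a median of -0.25. *PSAD2*, for the ferredoxin-docking subunit, had 435.3, 409.2 and 456.0 CPM in nup50c, against 680.8, 594.1 and 622.8 CPM in wild type (log2 fold change -0.55, edgeR adjusted p = 0.00770). *PSAH2* and *PSAO* fell by 0.43 and 0.33 (edgeR adjusted p = 0.0149 and 0.0301). In photosystem II, *PSBR* was the 1 of 9 to fall (log2 fold change -0.27, edgeR adjusted p = 0.0469), at a list median of -0.09.

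In the NDH complex 4 of 17 nuclear genes rose, with a median of 0.21. *PNSL3*, a lumenal subunit, had 45.8, 46.7 and 45.4 CPM in nup50c, against 24.7, 29.2 and 28.4 CPM in wild type (log2 fold change 0.74, edgeR adjusted p = 0.00617). *PNSB3*, *PNSB1* and *PNSL2* rose by 0.52, 0.36 and 0.36 (edgeR adjusted p = 0.0219, 0.0243 and 0.0397). Of 4 Rubisco small-subunit genes *RBCS2B* rose (log2 fold change 0.44, edgeR adjusted p = 0.0183), uncertain because it has near-identical copies and the handling of reads with several matches is not stated. *CAC3*, a subunit of the acetyl-CoA carboxylase to which *accD* also contributes, rose by 0.27 (edgeR adjusted p = 0.0392), 1 of 4.

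The remaining lists held no called gene. All 31 tested nuclear genes of the plastid ribosome were fitted above 0, with a median of 0.12, and the smallest adjusted p was 0.176, for *PRPS1*. The 4 ATP synthase genes had a median of 0.09 and a smallest adjusted p of 0.116 (*ATPC1*). The 2 cytochrome b6f genes had a median of 0.12 (*PETM*, edgeR adjusted p = 0.120), and the 8 Clp protease genes a median of 0.01 (*CLPP4*, edgeR adjusted p = 0.427).

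These nuclear calls rested on all libraries together. Leaving out nup50c replicate 1, 2 or 3 turned the 12 higher calls into 2, 1 or 10 and the 4 lower calls into 2, 1 or 5. Leaving out wild-type replicate 1, 2 or 3 gave 2, 1 or 8 higher calls and 1, 1 or 2 lower calls. Of the 16 genes, *PSAD2* (highest adjusted p 0.0392) and *PNSL3* (0.0377) were called without each library in turn, and the other 14 lost the call without at least 1.

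**Figure D5:**
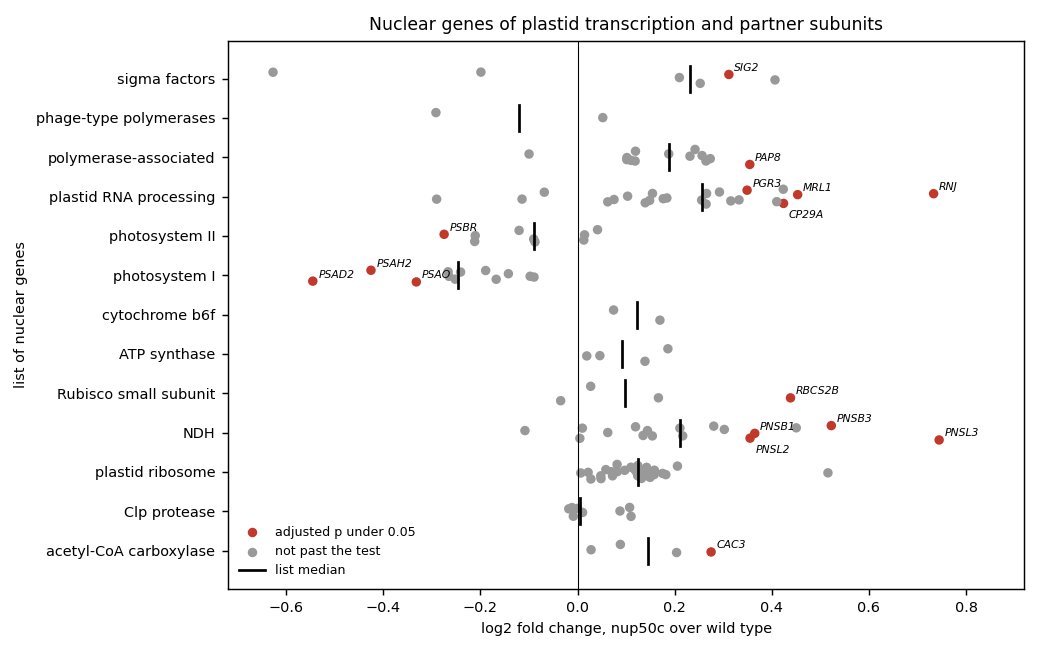
Log2 fold change of nup50c over wild type for nuclear genes of plastid transcription, RNA processing and partner subunits, by list, with red points for genes past the adjusted test and black bars at list medians. The photosystem I genes all lie below 0, the plastid ribosome genes all above it, and 12 genes are called higher and 4 lower.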

How the data were processed

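Total RNA of whole seedlings gave strand-specific mRNA libraries, per the labels' protocols. The deposited files give raw counts by gene, as whole numbers, and FPKM. HISAT2 2.0.4, HTSeq 0.6.1p1 and the build TAIR10 are named in the submitters' processing notes, without a role. The use of strand in counting is not stated in these sources, so overlapping and antisense genes may share counts.

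Counts were tested over the whole table in R 4.3.3 with edgeR 4.0.16: filterByExpr (10 counts, 15 in total), TMM scaling, robust quasi-likelihood F test without covariates, and Benjamini-Hochberg adjustment over 21158 genes at 0.05. The SE was derived from the moderated F, and 95% intervals use its degrees of freedom. Alternatives were DESeq2 1.42.0, its size factors, other filters, a replicate block, leaving out each library, and limma 3.58.1 on log2(FPKM + 1) or log2(FPKM + 0.1), with or without a mean FPKM of 0.5. The test was checked on simulated data. No pair of libraries within a group was a duplicate (chi-square per gene 14.7 to 30.1), and pairs across the groups were not compared.

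Plastid loci were given symbols and classes by a hand-written table and matched by symbol to RefSeq's TAIR10.1. The members and lists were chosen with earlier results of these data known. Named members are the 3 most abundant of each class, the 5 smallest p, the 3 largest fitted values in each direction and those without overlap. Also named are the genes listed as read by the phage-type polymerase (*accD*, *rpoB*, *rpoC1*, *rpoC2* and *ycf2*) and those at the count limit. Of each nuclear list the called genes are named, or else the gene with the smallest p. *psbD*, *atpH*, *atpI*, *rpoA*, *psbM*, *rpl22*, *psbJ*, *SIG4* and *SIG5* were named after their values were seen. *MORF2* and *CRR4* were not analysed here.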

Additional observations from a re-analysis of the deposited data

How the results depend on the processing

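In all 15 alternatives 0 plastid-encoded genes were called in either direction, and their median log2 fold change lay between 0.20 and 0.42. The numbers on the samples were not treated as pairs, because same-numbered libraries did not deviate together (correlations -0.031, -0.123 and -0.098). With the replicate block the list genes called were 0 higher and 0 lower, and over all genes 12 and 19, against 236 and 247 without it. *PSAD2* and *PNSL3* each had an adjusted p of 0.0594 there. With DESeq2 the list counts were 26 higher and 14 lower, and over all genes 662 and 616. With at least 10 counts in all libraries 17 list genes were higher and 7 lower, and over all genes 394 were higher and 378 lower. With only genes above 0 in all libraries these were 17, 8, 398 and 380. Leaving out 1 library gave 1 to 10 list genes higher and 1 to 5 lower, and over all genes 43 to 172 higher and 65 to 266 lower. Of 36 named members, 11 changed the sign of the fitted log2 fold change without 1 library, none of them called. Their values without each library ran from -0.11 to 0.98 for *rpoC2*, -0.053 to 0.77 for *psaB*, -0.67 to 0.33 for *ndhK*, -0.34 to 0.18 for *atpE*, -0.047 to 0.39 for *rbcL*, -0.23 to 0.19 for *psaJ*, -0.27 to 0.11 for *psbB*, -0.061 to 0.47 for *petB*, -0.13 to 0.34 for *rpl2.1*, -0.11 to 0.19 for *rrn23.1* and -0.12 to 0.19 for *rrn23.2*. The cause was not tested. The 16 called nuclear list genes kept their sign throughout. Low counts limit all of these values.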
